A study of Mus musculus with 2 samples.

Results

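The 50 genes described here are a chosen list of mouse DNA replication and cell cycle genes, followed in CD4 T cells of a Taf7 heterozygote and a Taf7 knockout. Taf7 is part of TFIID, which helps RNA polymerase II to start at promoters. Each was taken as its transcript cluster (the set of array probes summarised into 1 value) that carries a single gene symbol, and where a gene had several such clusters, as the cluster of highest mean. This gave a value for 49 of the 50 members, among 19938 genes in all; Ccnb1, a mitotic cyclin, was not analysed here. The members were split by role into 18 genes of the passage from G1 into S phase, 20 genes of the replication fork and its supply of nucleotides, and 12 genes of G2 and mitosis. Of the 49, 38 had a mean log2 value over both arrays above 7.7, a level that 10500 genes passed.

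Total RNA was measured on 1 array per genotype, so no difference below has a replicate check or a test, and precision is limited by the number of arrays. The cells were splenic CD4 T cells sorted on high TCRbeta and high CD4, with naive cells enriched through low surface CD44. The knockout sample, Taf7 -/-, came from TAF7f/- 8EIII-cre+ mice and the heterozygous sample, Taf7 +/-, from TAF7 f/- mice without the Cre, so that both carried a floxed and a null allele. The strain of both is given as a mix of C57/BL6 and 129. The labels give the Cre by name only; the cells it is active in, the age of the mice and the number of mice per sample are not given there.

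Cells enter S phase when D cyclins with Cdk4 or Cdk6, and then E cyclins with Cdk2, phosphorylate the retinoblastoma family of pocket proteins, which frees E2F transcription factors to switch on replication genes. Origins are licensed by loading of the MCM helicase and fired once, and the mitotic genes are switched on later, through a different set of promoter elements that are held by the MuvB complex and NF-Y. Naive T cells rest outside the cycle, with the inhibitor p27 (Cdkn1b) and pocket proteins present, and mitotic transcripts are known to be scarce in resting cells. In bulk RNA, fewer cycling cells and less RNA per cell cannot be told apart.

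The promoters of the members carry the letters of these elements, and a few are printed because they belong to the genes with the largest differences of their class or show the elements most clearly. RefSeq windows on GRCm38.p6, from 250 bases before to 50 after the gene start, were matched for 38 of the members and gave 43 windows. Capitals mark E2F letters (TTCCCGC or TTGGCGC), the CCAAT box (CCAAT, the NF-Y site) and the cell cycle homology region (CHR, TTTGAA), each searched on both strands, with overlaps allowed. Among members above the threshold, E2f3 and Ccne1 had the largest differences in size of the G1/S class, Rfc4 of the fork class and Ccnb2 of the G2/M class; the promoters of Pola1 and Top2a were chosen after the matches had been counted, as the fork promoter with the most E2F letters and the mitotic promoter with the most CCAAT boxes. The 2 windows of E2f3 belong to separate starts of that gene.
E2f3 promoter, chr13:29986014-29986313, minus strand: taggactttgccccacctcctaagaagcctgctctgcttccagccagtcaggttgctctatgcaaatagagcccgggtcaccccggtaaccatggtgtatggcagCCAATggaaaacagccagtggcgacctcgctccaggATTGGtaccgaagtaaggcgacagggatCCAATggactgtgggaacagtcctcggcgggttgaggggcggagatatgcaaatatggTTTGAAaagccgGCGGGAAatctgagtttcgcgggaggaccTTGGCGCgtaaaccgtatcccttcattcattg
E2f3 promoter, chr13:29984342-29984641, minus strand: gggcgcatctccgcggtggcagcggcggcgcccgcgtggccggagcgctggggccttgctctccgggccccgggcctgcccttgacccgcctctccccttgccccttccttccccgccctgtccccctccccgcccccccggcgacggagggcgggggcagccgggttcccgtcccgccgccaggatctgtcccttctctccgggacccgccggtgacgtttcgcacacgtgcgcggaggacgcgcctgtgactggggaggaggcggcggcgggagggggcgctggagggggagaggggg
Ccne1 promoter, chr7:38107441-38107740, minus strand: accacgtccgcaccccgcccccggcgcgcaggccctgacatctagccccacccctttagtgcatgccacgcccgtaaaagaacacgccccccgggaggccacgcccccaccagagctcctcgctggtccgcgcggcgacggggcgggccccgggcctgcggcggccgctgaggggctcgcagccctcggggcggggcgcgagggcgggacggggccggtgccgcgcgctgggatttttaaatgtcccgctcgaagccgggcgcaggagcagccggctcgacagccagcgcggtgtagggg
Rfc4 promoter, chr16:23127681-23127980, minus strand: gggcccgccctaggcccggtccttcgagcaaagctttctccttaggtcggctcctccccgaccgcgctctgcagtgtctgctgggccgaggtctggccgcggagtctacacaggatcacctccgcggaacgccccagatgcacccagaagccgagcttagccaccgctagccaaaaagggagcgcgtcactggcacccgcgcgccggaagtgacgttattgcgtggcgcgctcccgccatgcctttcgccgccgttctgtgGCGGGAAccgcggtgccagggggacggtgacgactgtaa
Pola1 promoter, chrX:93632106-93632405, minus strand: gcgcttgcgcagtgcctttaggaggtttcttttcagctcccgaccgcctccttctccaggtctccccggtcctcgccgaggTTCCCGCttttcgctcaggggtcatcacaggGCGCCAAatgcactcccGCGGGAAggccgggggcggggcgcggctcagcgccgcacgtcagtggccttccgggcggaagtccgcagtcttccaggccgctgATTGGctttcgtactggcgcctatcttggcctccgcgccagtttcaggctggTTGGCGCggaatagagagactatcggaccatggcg
Ccnb2 promoter, chr9:70421505-70421804, minus strand: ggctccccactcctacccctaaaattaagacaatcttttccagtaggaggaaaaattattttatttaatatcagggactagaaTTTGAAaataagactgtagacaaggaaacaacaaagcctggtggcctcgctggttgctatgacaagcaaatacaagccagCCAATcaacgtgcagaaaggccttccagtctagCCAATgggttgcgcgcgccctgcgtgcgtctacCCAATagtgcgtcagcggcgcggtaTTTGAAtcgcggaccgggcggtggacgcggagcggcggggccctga
Top2a promoter, chr11:99024140-99024439, minus strand: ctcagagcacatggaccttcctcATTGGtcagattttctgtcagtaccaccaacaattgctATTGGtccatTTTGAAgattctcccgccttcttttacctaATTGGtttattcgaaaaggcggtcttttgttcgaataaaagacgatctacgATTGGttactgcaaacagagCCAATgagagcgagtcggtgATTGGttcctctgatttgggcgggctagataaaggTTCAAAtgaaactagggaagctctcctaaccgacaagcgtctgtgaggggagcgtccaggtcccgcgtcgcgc

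The classes differed in these letters. E2F letters stood in 12 of 17 windows of fork genes (70.6%), in 4 of 17 of G1/S genes (23.5%) and in 2 of 9 of G2/M genes (22.2%), against 6.81% of all 32851 windows in the table. The CHR letters showed another distribution, with 7 of 9 G2/M windows (77.8%), 1 of 17 fork windows (5.88%) and 3 of 17 G1/S windows (17.6%), against 17.9% of all windows. The CCAAT box was in 8 of 9 G2/M windows (88.9%), 12 of 17 fork windows (70.6%) and 8 of 17 G1/S windows (47.1%), against 37.4% of all. In the Ccnb2 window 3 CCAAT boxes begin 87, 54 and 21 bases before the start, and a CHR begins at base 5 after it. The Pola1 window holds E2F letters at 4 places, the Rfc4 window at 1, which begins at base 12 after the start. E2f3 had 2 E2F matches, 3 CCAAT boxes and a CHR in the window upstream and none of these letters in the other, and the Ccne1 window also had none. A match is a description of the letters in this window and not a site, and a window without a match says nothing about the factor.

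How far the sample fits its labels was looked at first. Taf7 had a log2 value of 8.34 in the heterozygous and 7.79 in the knockout sample, 1.46-fold lower; whether its probes lie inside the deleted stretch is not stated, so this value is a weak check. The 9 measured CD4 T cell markers and the 5 measured naive T cell markers, such as Cd3e and Ccr7, were all above 7.7 on average. The CD4 T cell markers were lower in the knockout for 6 of 9, with sums of linear values of 72539 in the heterozygous and 64499 in the knockout sample. The naive markers were lower for 4 of 5, with sums of 51149 and 45478. Of all genes above 7.7, 58.9% were lower. Of 31 measured markers of B, plasma, myeloid, NK, erythroid and CD8 T cells, 27 were at or below 7.7, and Cd79b, Cd8b1, Nkg7 and Tfrc were above it. Regulatory T cell markers were lower in the knockout for 8 of 8, with sums of 15564 and 9195. Their median difference was -1.02, and 6 were at least 1.5-fold lower, against 3.16% of all genes above 7.7. Activation and memory markers were lower for 7 of 8, with sums of 13211 and 11504, and 3 were at least 1.5-fold lower. Their median difference was -0.46, against -0.17 for the CD4 T and -0.11 for the naive markers. Il2ra is on both this list and that of regulatory T cells, and was counted as 1.5-fold lower in each. The sorting marker Cd44 was at 9.56 in the heterozygous and 8.21 in the knockout sample. Cd69, the 1 marker of this list that was higher, was at 12.06 and 12.50. Regulatory and memory cells are types that cycle more than naive cells, and their part in the differences below was not tested.

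Few replication or cell cycle genes differed by 1.5-fold between the genotypes. Among the 38 members above 7.7, none was at least 1.5-fold higher in the knockout, where 0.448% of all genes above 7.7 were, and 1, Rfc4, was at least 1.5-fold lower, which is 2.63% of the members against 3.16% of all such genes. No member differed by 2-fold, against a background of 0.0381% higher and 0.324% lower. By sign, 16 were higher (42.1%, against 41.1% of all genes above 7.7) and 22 lower (57.9%, against 58.9%), and the median difference, knockout minus heterozygous, was -0.02 on the log2 scale against -0.05 for all genes. The members as a whole were close to the background in each of these counts. Of the 11 members at or below 7.7, none was 1.5-fold higher, against 0.466% of all genes at such levels, and 1, Pole, was 1.5-fold lower, against 0.752%. The differences of all genes depended on level: genes at or below 7.7 had a median of 0.14 and 82.5% of them were higher in the knockout. Each class is therefore set beside genes of its own level range. For the G1/S and fork members above 7.7 that range held 9491 and 9552 of the 10500 genes above 7.7, so it matches their level only loosely.

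**Figure D1:**
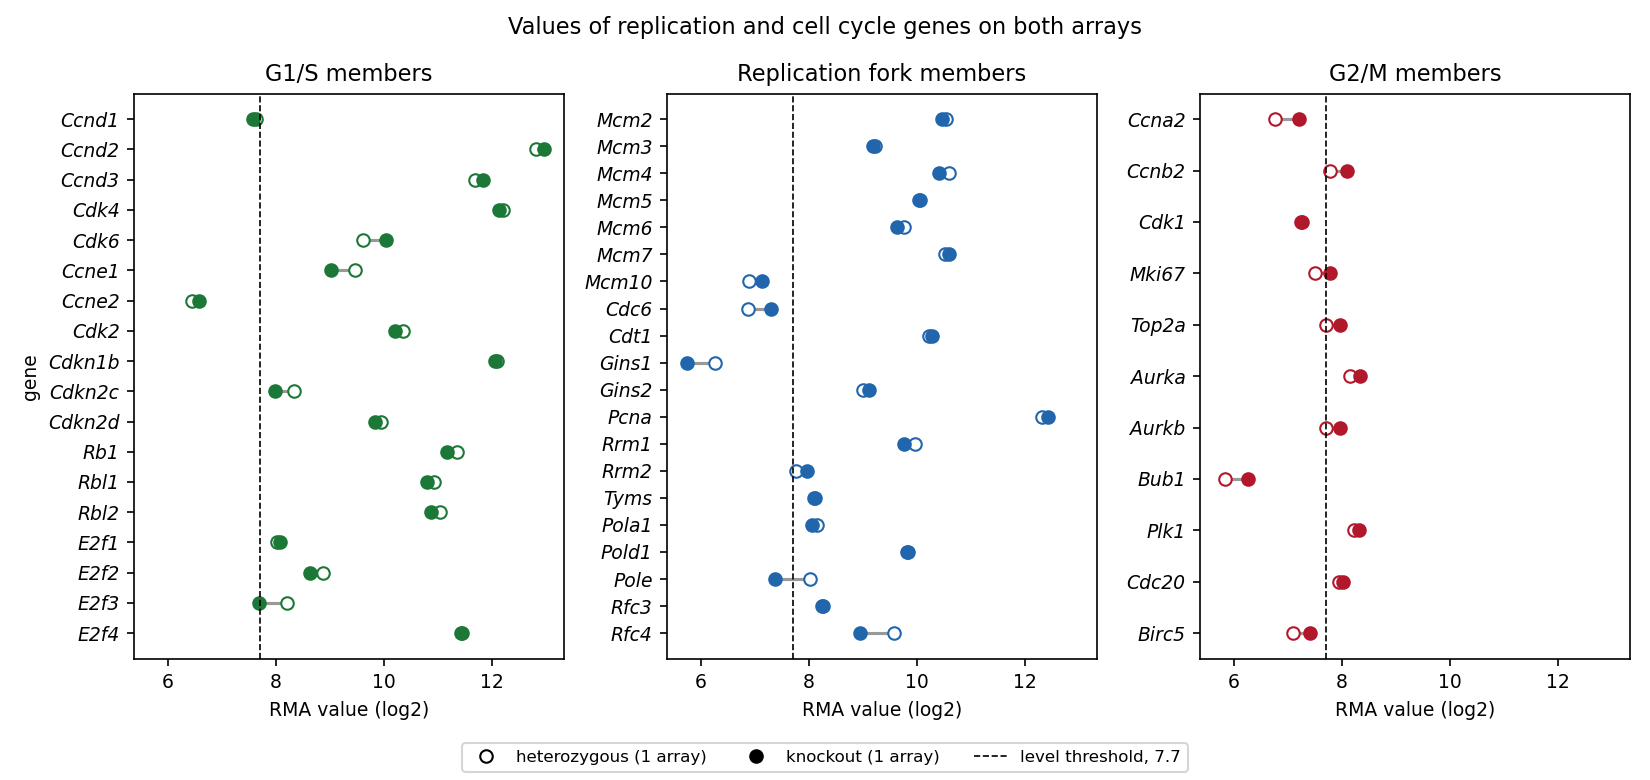
RMA values (log2, horizontal axis) of the 49 measured members, 1 row per gene, in 3 panels by class; open circles are the heterozygous array, filled circles the knockout array, and the dashed line is the level threshold of 7.7. Most pairs of circles touch or overlap; Rfc4, Pole, E2f3, Gins1, Ccne1, Cdk6, Ccna2, Cdc6 and Bub1 are among those that lie apart, by between 0.43 and 0.64 in size.

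The engine of G1 was present and little changed. Ccnd2, a D cyclin of lymphocytes, had log2 values of 12.82 in the heterozygous and 12.97 in the knockout sample, and Ccnd3, the other main lymphoid D cyclin, 11.70 and 11.84. Ccnd1, the D cyclin of many other tissues, was at 7.62 and 7.57, with a mean just outside the threshold. Of their partner kinases, Cdk4 was at 12.21 and 12.14 and differed by -0.07. Cdk6 (NCBI gene 12571, chromosome 5), which pairs with the D cyclins in T cells, was at 9.60 and 10.04, a log2 difference of 0.44 or 1.35-fold higher. Cdk6 had the highest difference of any member above the threshold, and 1.23% of the 1383 genes within 0.25 of its level had one as high or higher.

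Next in the order of the cycle, cyclin E1 was lower in the knockout. Ccne1 (NCBI gene 12447, chromosome 7), whose protein activates Cdk2 at the G1/S boundary, was at 9.46 in the heterozygous and 9.02 in the knockout sample, 1.36-fold lower, and 12.6% of genes of like level had a lower difference. Ccne2, its paralog, was below the threshold at 6.43 and 6.58, and Cdk2 was at 10.35 and 10.21. The 3 listed inhibitors of these kinases were lower in the knockout or nearly level. Among inhibitors that were not listed members, Cdkn2b and Cdkn1c were higher, by 0.36 and 0.17, and by 0.24 and 0.06 with the trend on level removed. Cdkn2c (p18), which binds Cdk4 and Cdk6, was at 8.33 and 7.97, a difference of -0.35. Its relative Cdkn2d (p19) was at 9.94 and 9.84. Cdkn1b (p27), the inhibitor of cyclin E with Cdk2, was at 12.10 and 12.06, and its other cluster differed by -0.19. The difference of Cdkn1b, -0.04 as deposited, changed sign with the trend on level removed and with quantile normalization.

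The 3 pocket proteins, which hold E2F factors in check, lay close together. Rb1 was at 11.35 in the heterozygous and 11.18 in the knockout sample, a difference of -0.17. Rbl1 (p107) was at 10.92 and 10.81, and Rbl2 (p130), the pocket protein of resting cells, at 11.05 and 10.88, also -0.17. All 3 were lower by a small amount, also with the trend on level removed and with quantile normalization. Centring and averaging of clusters could not turn these signs, since centring lowers every difference and each gene has 1 cluster. Of all genes in the level range of the G1/S members above 7.7, 62.4% were lower. Of genes of like level, 20.8%, 36.3% and 23.8% had a lower difference than Rb1, Rbl1 and Rbl2. The E2F factors spread more widely. The activators E2f1, E2f2 and E2f3 differed by 0.06, -0.25 and -0.52, and E2f4, which acts with pocket proteins as a repressor, by -0.03. E2f3 (NCBI gene 13557, chromosome 13) was at 8.20 and 7.68, 1.43-fold lower, and 3.98% of the 1658 genes of like level had a lower difference. The other E2f3 cluster, at 7.48 and 7.62, differed by 0.14 in the opposite direction, and averaging the clusters gave -0.19, so that the difference of E2f3 rests on 1 of 2 clusters. The signs of E2f1 and E2f4 turned with the trend removed, to -0.04 and 0.02.

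Over the 16 G1/S members above 7.7, the knockout was higher for 4 and lower for 12, and the median difference was -0.11. All genes in their level range had a median of -0.06, and 62.4% of them were lower. With the trend on level removed, there were 5 higher and 11 lower, the median was -0.04, and E2f3 then passed 1.5-fold at -0.64. The 3 highest differences were those of Cdk6, Ccnd3 and Ccnd2, and the 3 lowest those of E2f3, Ccne1 and Cdkn2c.

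**Figure D2:**
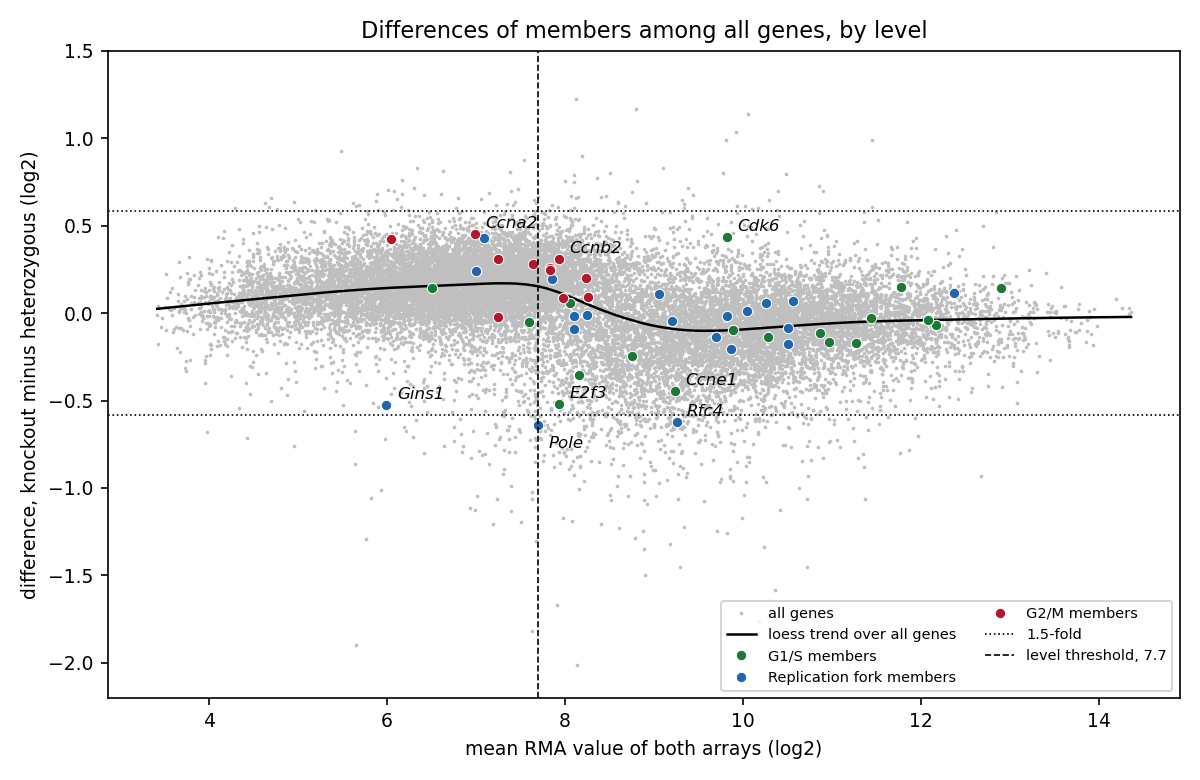
Log2 difference, knockout minus heterozygous (vertical axis), against the mean log2 value of both arrays (horizontal axis), for all 19938 genes in grey and the 49 measured members in colour by class; the line is the loess trend, the dotted lines mark 1.5-fold and the dashed line the level of 7.7. The trend lies above 0 at low levels and below 0 at high levels, the G2/M members sit where it is above 0, and of the members only Rfc4 and Pole lie past a dotted line.

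At the fork, the replicative helicase was even across its subunits. The MCM complex, which unwinds DNA at the fork, is a ring of 6 subunits, Mcm2 to Mcm7, and their differences ran from -0.18 for Mcm4 to 0.07 for Mcm7. Mcm2 was at 10.55 in the heterozygous and 10.46 in the knockout sample, Mcm3 at 9.22 and 9.18, and Mcm5 at 10.04 and 10.05. Mcm4 was at 10.60 and 10.42, Mcm6 at 9.77 and 9.63, and Mcm7 at 10.52 and 10.59. All 6 were above the threshold and 4 were lower. Mcm3 turned sign with the trend removed and with quantile normalization, and Mcm5 with centring. Cdt1, which loads the ring at origins, was at 10.23 and 10.29. Its partner in loading, Cdc6, was below the threshold, at 6.87 and 7.30, with a difference of 0.43 where genes of like level had a median of 0.17. Mcm10, which joins the helicase as it is activated, was also below it, at 6.88 and 7.12.

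The GINS complex, which completes the active helicase with Cdc45, showed opposite signs among its subunits. Gins1 was lower, at 6.26 and 5.73, a difference of -0.52, and 0.567% of the 1234 genes of like level had a lower one, the smallest such share of any member. Its values lay below the threshold on both arrays. Gins1 passed 1.5-fold with the trend on level removed (-0.67) and with quantile normalization (-0.62). Gins2 was at 9.004 and 9.11, and among the subunits that were not listed members Gins3 differed by -0.22 and Gins4 by 0.08. Cdc45, which is not a GINS subunit and was not a listed member, differed by 0.30.

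The polymerases and the sliding clamp were close to level at their catalytic subunits, with Pole as the exception. Pola1, the catalytic subunit of the priming polymerase alpha, was at 8.15 in the heterozygous and 8.06 in the knockout sample. Pold1, that of the lagging strand polymerase delta, was at 9.83 and 9.81. Pole (NCBI gene 18973, chromosome 5), that of the leading strand polymerase epsilon, was at 8.02 and 7.38, 1.56-fold lower, the largest difference of all members. Its mean of 7.698 missed the threshold of 7.7, so it was not counted above, and 1.49% of the 1948 genes of like level had a lower difference. The other epsilon subunits Pole2, Pole3 and Pole4 differed by -0.20, -0.02 and -0.24. Pcna, the clamp that tethers the polymerases, was at 12.31 and 12.42. Its 2 clusters were nearly identical on both arrays, with a difference of 0.112 each. Whether they share probes was not looked at, so the second cluster is not a separate check.

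The clamp loader that places Pcna on DNA held the lone member past 1.5-fold among those above 7.7. Rfc4 (NCBI gene 106344, chromosome 16), a small subunit of the loader, was at 9.57 in the heterozygous and 8.94 in the knockout sample, 1.54-fold lower (-0.62), and 4.25% of the 1200 genes of like level had a lower difference. It fell inside 1.5-fold with the trend removed (-0.53) and with quantile normalization (-0.55). Rfc3, another small subunit, was at 8.26 and 8.24. Of the subunits that were not listed members, Rfc1, the large subunit, differed by -0.28, Rfc2 by 0.09 and Rfc5 by 0.09, so the 5 subunits of 1 complex ran from -0.62 to 0.09.

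The nucleotide supply enzymes showed small differences. Rrm1, the large subunit of ribonucleotide reductase, was at 9.96 and 9.76. Rrm2, its S phase subunit, was at 7.76 and 7.96, higher by 0.20 where genes of like level had a median of 0.15. Tyms, which makes thymidylate, was at 8.11 and 8.09. Over the 16 fork members above 7.7, the knockout was higher for 6 and lower for 10, and the median difference was -0.02. All genes in their level range had a median of -0.06, and 61.3% of them were lower, against 62.5% of the fork members. The sign of the class median turned with the trend removed, to 0.02, and 8 were then higher and 8 lower. The 3 highest differences above the threshold were those of Rrm2, Pcna and Gins2, and the 3 lowest those of Rfc4, Rrm1 and Mcm4.

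**Figure D3:**
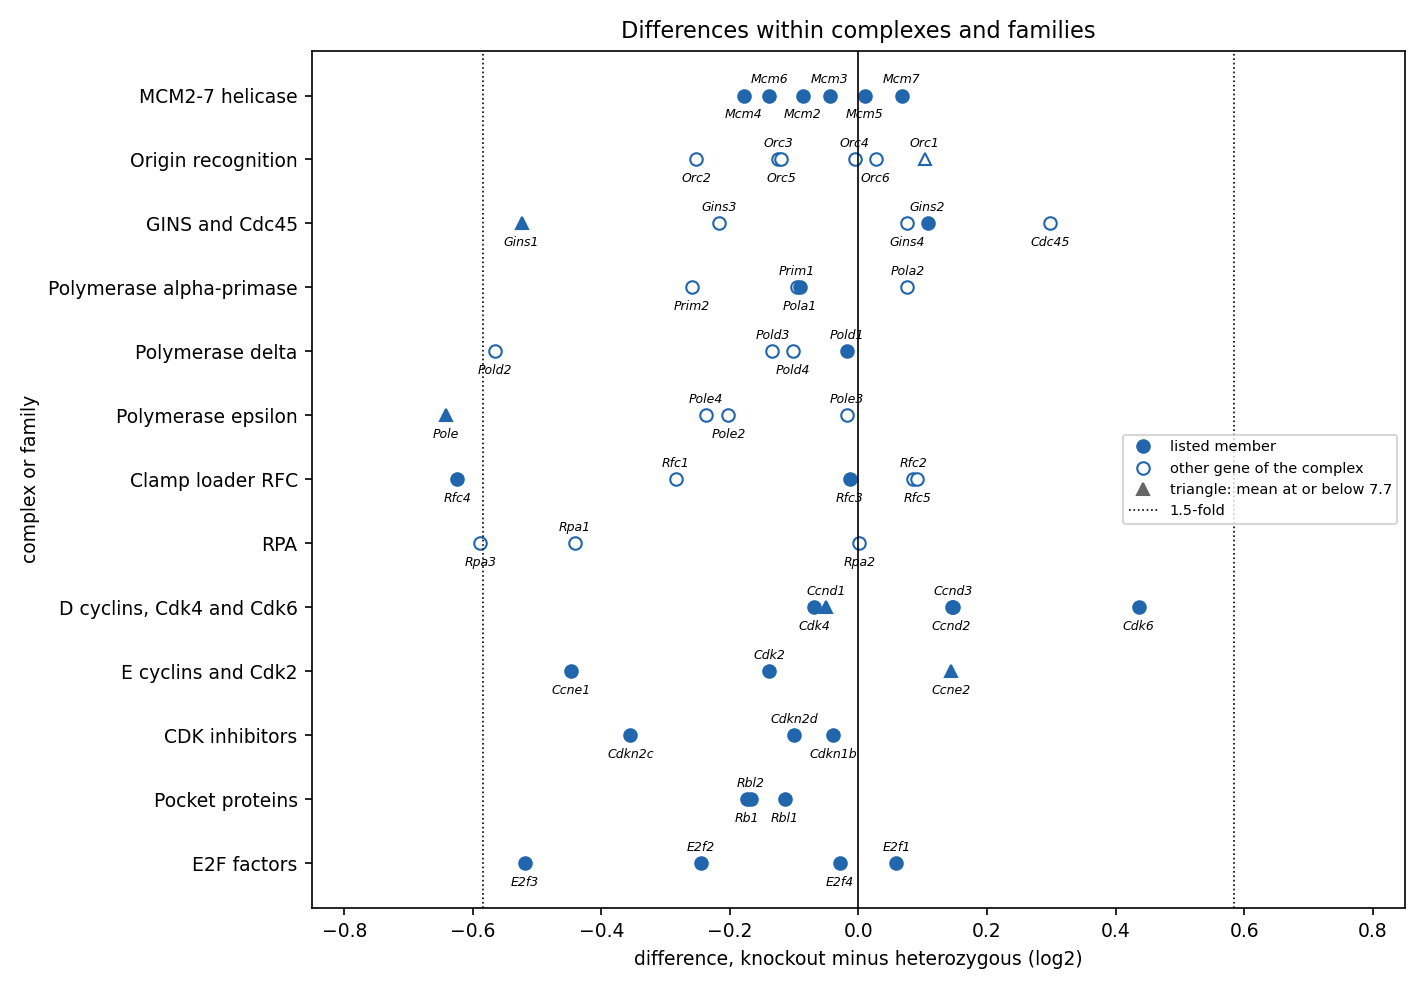
Log2 difference, knockout minus heterozygous (horizontal axis), of each subunit of 13 complexes or families (rows); filled symbols are listed members, open symbols other genes of the same complex, triangles genes with a mean at or below 7.7, and dotted lines mark 1.5-fold. The MCM subunits lie within -0.18 and 0.07, whereas Rfc4, Pole, Pold2 and Gins1 lie below the other subunits of their complexes, and Rpa3 and Rpa1 lie below Rpa2.

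The genes of G2 and mitosis were the class with the lowest share above the threshold, 6 of 11 measured, and those 6 were all higher in the knockout by a small amount as deposited, 5 of them with the trend on level removed. Ccnb2 (NCBI gene 12442, chromosome 9), a mitotic cyclin, was at 7.77 in the heterozygous and 8.08 in the knockout sample, a difference of 0.31. Top2a, the topoisomerase that untangles chromosomes, was at 7.705 and 7.96, and Aurkb, the kinase of the chromosomal passenger complex, at 7.71 and 7.96. Aurka, the spindle pole kinase, was at 8.14 and 8.34, Plk1, a kinase of mitotic entry, at 8.22 and 8.31, and Cdc20, an activator of the anaphase-promoting complex, at 7.94 and 8.02. The second Top2a cluster, at 4.21 and 3.97, differed by -0.24, and the average of its clusters by 0.01.

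Genes of the same level were also mostly higher in the knockout. The 6 mitotic members had a median of 0.22, and all 1264 genes in their level range, from 7.83 to 8.26, had a median of 0.13 with 67.4% of them higher. With the trend on level removed the median of the 6 was 0.12, and Cdc20 turned to -0.02. Of the 5 members below the threshold, 4 were higher (80%), against 84.6% of all genes in their level range. The exception was Cdk1, the mitotic kinase, at 7.26 and 7.24. Ccna2, the cyclin of S phase and G2, was at 6.76 and 7.21, and Bub1, a spindle checkpoint kinase, at 5.83 and 6.26. Mki67, the proliferation antigen Ki-67, was at 7.50 and 7.78, and Birc5 (survivin) at 7.09 and 7.41. Genes of like level had median differences between 0.15 and 0.17 there, and 2.62% of them had a difference as high as that of Ccna2 or higher and 3.91% one as high as that of Bub1 or higher. The same shares were 24.7% for Mki67, 16.9% for Birc5 and 87.6% for Cdk1. The members nearest to the threshold were Top2a and Aurkb just inside it, with means of 7.83, and Pole, Mki67 and Ccnd1 just outside, with means of 7.698, 7.64 and 7.59.

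**Figure D4:**
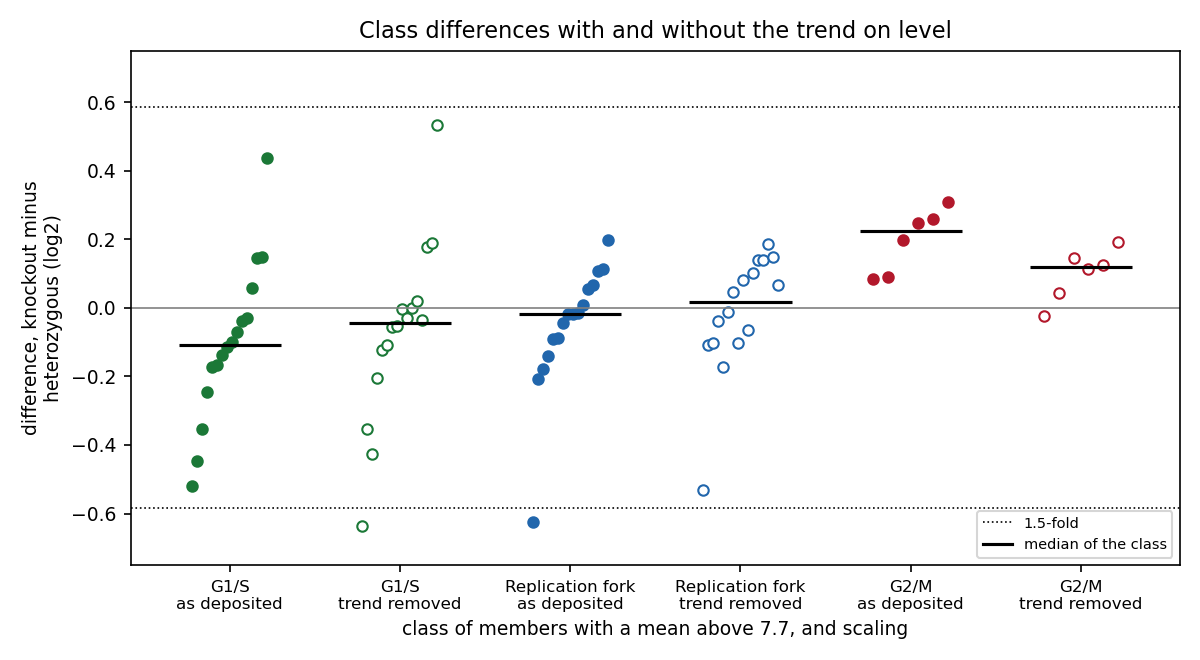
Log2 difference, knockout minus heterozygous (vertical axis), of the 38 members with a mean above 7.7, by class, as deposited (filled) and with the loess trend on level removed (open); each circle is a gene, the bars are class medians and the dotted lines mark 1.5-fold. The G2/M median drops from 0.22 to 0.12, the G1/S median moves from -0.11 to -0.04 and the fork median from -0.02 to 0.02.

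Other genes of the same pathways were read from 4 further lists of 132 genes, of which 104 were above 7.7. None was at least 1.5-fold higher and 5 were at least 1.5-fold lower (4.81%, against 3.16% of all genes), namely Mad2l1, Ect2, Rnaseh2b, Rpa3 and Timeless. Mad2l1, the spindle checkpoint protein Mad2, was at 9.70 in the heterozygous and 8.91 in the knockout sample, 1.73-fold lower. Ect2, an exchange factor needed for cytokinesis, was at 8.12 and 7.48, 1.56-fold lower. These 2 also passed with the trend removed and with quantile normalization, and the other 3 did not. Both encode proteins of mitosis, and both were lower while the listed mitotic members were slightly higher.

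Among the 45 further replication genes above 7.7, the knockout was higher for 14 and lower for 31 (68.9%, against 58.9% of all genes above 7.7), and the median difference was -0.13 against -0.05 for all genes. With the trend on level removed, 16 were higher and 29 lower (64.4%, against 50.8% of all genes above 7.7). Timeless and Tipin, partners that protect stalled forks, differed by -0.59 and -0.49. Rpa3 and Rpa1, subunits of the single strand binding protein RPA, differed by -0.59 and -0.44, whereas Rpa2 was at 0.00, and Rpa3 was at -0.35 when its clusters were averaged. Rnaseh2b, a subunit of the enzyme that removes ribonucleotides from DNA, was at 9.49 and 8.87, and its partner Rnaseh2c, the highest of this list, differed by 0.37. Pold2, an accessory subunit of polymerase delta, was at 10.83 and 10.27, just inside 1.5-fold. Cdc45 came after Rnaseh2c at the upper end.

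The other lists gave no gene past 1.5-fold besides Mad2l1 and Ect2. Of 24 further G1/S genes above 7.7, the knockout was higher for 6 and lower for 18 (75%, against 58.9% of all genes above 7.7), with a median of -0.11. With the trend on level removed, 11 were higher and 13 lower (54.2%, against 50.8% of all genes above 7.7). With quantile normalization 12 were higher and 12 lower. Lin9, a MuvB subunit, differed by -0.53 and Mnat1, of the CDK-activating kinase, by -0.43, while Cdkn2b (p15) was at 0.36 and E2f7, a repressor, at 0.18. Of 22 further G2/M genes above 7.7, the knockout was higher for 11 and lower for 11 (50%, against 58.9% of all genes above 7.7), with a median of 0.00. The phosphatase Cdc25b at 0.44 and the activator Mybl2 at 0.39 were the highest. With the trend on level removed, 9 of these genes were higher and 13 lower (59.1%, against 50.8%). The 13 quiescence genes were all above 7.7, 7 higher and 6 lower (46.2%, against 58.9% of all genes above 7.7), with a median of 0.00. Tob1, an antiproliferative factor, was the highest of them at 0.43 and Btg2, a related one, came next at 0.14, while Foxo1, a factor of naive T cell homeostasis, was the lowest at -0.19 and Foxp1, which keeps T cells resting, was at -0.05. The quiescence genes were 8 higher and 5 lower with the trend removed (38.5% lower, against 50.8% of all genes above 7.7). They were 11 higher and 2 lower with quantile normalization (15.4%, against 48.1%). With the trend removed the list medians were -0.04 for G1/S, -0.06 for replication, -0.03 for G2/M and 0.07 for quiescence. Those of G1/S and replication stayed below 0 under every scaling, and that of quiescence ran from -0.05 with centring to 0.07.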

How the data were processed

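The authors deposited 1 table of log2 values per gene, which the design text and, per the submitters' processing notes, the labels trace to RMA in Affymetrix Expression Console (version 1.1). That text names an exon array and its core gene set. The table that pairs probes with genes is of a gene-level array, so the array type was not settled. The table has 35556 rows for 2 arrays, with column medians of 7.68 (heterozygous) and 7.75 (knockout). Of the rows, 21789 carry 1 symbol, 1621 several and 12146 none. The reference gene table held 21698 of their identifiers and changed no symbol. No genome build is named for the probes.

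The values were used as deposited, and the log2 difference, knockout minus heterozygous, was set beside all genes above a mean of 7.7 and beside genes within 0.25 of a member's level. With 1 array per genotype no test was run. Only the trend removal and the 1.5-fold count after it were tested on simulated data. The planted differences were larger than that of any member and lay clear of the level threshold, so smaller differences were not covered. The members, classes and lists were chosen with earlier results of these data known. Values are given for members above the threshold and nearest to it, and for the ends of each class and list. The other members below it, the further subunits of each complex, Cdkn1c, Tipin, Rpa1, Pold2 and the promoters of Pola1 and Top2a were added after values were seen. As alternatives, differences were centred on their median, a loess trend (span 0.3) was removed, arrays were quantile normalized, clusters were averaged, and 5 other level thresholds were used. Promoter windows are from RefSeq, GRCm38.p6. Members with no window were Ccnd1, Ccnd2, Ccne2, Rb1, E2f4, Mcm4, Gins1, Gins2, Pole, Ccna2 and Aurkb. Software was numpy 2.4.6, matplotlib 3.10.9, pandas 2.3.3 and statsmodels 0.14.6 under Python 3.11.15.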

Additional observations from a re-analysis of the deposited data

How the results depend on the processing

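No array could be left out, since there is 1 per genotype. No paired analysis was possible because the arrays share no replicate beyond the lone one. No member above the threshold was 1.5-fold higher under any of the 9 alternatives. The count 1.5-fold lower, 1 as deposited, was 0 with quantile normalization and 0 with the threshold at the 75th percentile, which leaves fewer genes, and 2, with Pole, with no threshold, with that at the 25th percentile and with that on the higher array. With the threshold at the 75th percentile, 20 members stayed, 7 higher and 13 lower, and no G2/M member, so that class had no median there. The class medians under centring, trend removal and quantile normalization were -0.16, -0.044 and -0.033 for G1/S, -0.068, 0.017 and 0.012 for the fork, and 0.17, 0.12 and 0.18 for G2/M; centring adds a constant, and the cause of the other shifts was not tested. The further pathway genes past 1.5-fold, 5 as deposited, were 2 with trend removal, 2 with quantile normalization and 0 with the 75th percentile. Of 152 values of single members under the 4 scalings and summaries, 150 moved by less than the spread of genes of like level. The other 2, those of E2f3 and Top2a with clusters averaged, moved further. Much of this count was fixed in advance. Centring shifted every member by 0.05, less than any such spread, and averaging cannot move a gene with a single cluster. Only Cdkn1b, E2f3, Pcna and Top2a had a second cluster, and those of Pcna were nearly identical. Of the 38 members above 7.7, the sign changed for 7, Cdkn1b, E2f1, E2f4, Mcm3, Mcm5, Pold1 and Cdc20, all within 0.1 of 0 as deposited; below 7.7, that of Ccne2 turned from 0.14 to -0.01 with the trend removed.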

Other observations

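Below the threshold, 20 further G2/M genes had a median difference of 0.11, with 13 higher (65%) and 7 lower. Of all genes at or below 7.7, 82.5% were higher. With the trend on level removed, the median of the 20 was -0.05, with 9 higher and 11 lower. Named after their values were seen, Pbk, a mitotic kinase, was at 5.99 in the heterozygous and 6.52 in the knockout sample, and Nusap1, a spindle protein, at 6.67 and 7.07. Ckap2, another spindle protein, was at 6.41 and 6.78. These genes are from the upper end of the list, and the lowest, Cdca8, was at 6.76 and 6.52.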
